A study of Mus musculus with 10 samples.

Results

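Deep fascia-like fibroblasts were cells of mouse embryonic back skin that carried collagen RNA together with at least 2 of the 4 genes Mfap5, Pi16, Dpp4 and Osr1. They were chosen by the measured UMIs (unique molecular identifiers, counted RNA molecules) of 17 genes among 55482 cells kept in 10 single-cell RNA libraries. Kept cells had more than 1000 but fewer than 6000 genes detected, with mitochondrially encoded genes at less than 10% of their UMIs. A cell was gated as a fibroblast with at least 30 UMIs of Col1a1 and Col3a1 together, under 10 UMIs of Krt5 and Krt14 together, and no UMI of Sox2, Pecam1 or Ptprc. It was called deep fascia-like when it also had fewer than 3 of Crabp1, Axin2, Lef1, Rspo1, Ptgfr and Inhbb, genes of the upper dermis and of hair follicle dermal cells. Of the 30590 gated fibroblasts, 1878 (6.14%) met this rule, which was 3.39% of all kept cells. The remaining 28712 gated fibroblasts are called other fibroblasts below, and the 1878 cells are called members.

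The fascia is the loose collagenous sheet under the skin and around muscle. Its fibroblasts share a programme with the fibroblasts of vessel adventitia, in which Pi16 encodes a peptidase inhibitor homologue and Dpp4 a surface dipeptidase. Mfap5 encodes a microfibril protein and Osr1 a transcription factor of embryonic connective tissue. Such cells are known as a source of other fibroblasts and as the first to move into wounds in adult skin. Cells of the upper dermis lie under the epidermis, receive Wnt signals from it and carry genes such as Lef1 and Axin2.

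Embryos of the MOF cKO group were MOFfl/fl with K14Cre and embryos of the QPC cKO group were QPCfl/fl with K14Cre, a Cre driven by a keratin promoter of epithelial cells, so that the fibroblasts described here were not the cells in which the gene was to be deleted. MOF, encoded by Kat8, acetylates histone H4, and QPC, encoded by Uqcrq, is a subunit of respiratory complex III. At E15.5 there were 2 control libraries (replicates 2 and 3) and 2 MOF cKO libraries (replicates 5 and 6), at E16.5 there were 2 of each, and the E17.5 skin gave a single control library and a single QPC cKO library. Controls were littermates, wild type or heterozygous, and the embryo of MOF cKO replicate 6 was described as mosaic for the deletion. The labels do not say which replicates came from separate litters, so p-values measure the spread between these libraries, which may be technical.

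The libraries held 13609345 to 203392303 UMIs, fewest at E16.5. Members numbered 29 to 362 per library, with 29 in E16.5 MOF cKO replicate 1, and their median depth of 11766.5 to 24890 UMIs exceeded that of the other fibroblasts (9368 to 19729) in every library. The E17.5 control and QPC cKO libraries shared 1702 barcodes, 20.7% of the smaller library, and 18 control and 2 QPC cKO members had such a barcode, none of them a member in both. Xist RNA was absent and Ddx3y RNA present in E16.5 control replicate 2 and in both E17.5 libraries, and the reverse held in the other 7. In keratin-high cells, Kat8 stood at 20.3 and 15.02 counts per 1000000 UMIs (CPM) in the E16.5 controls against 8.66 and 3.06 in MOF cKO (5 and 2 UMIs), but at E15.5 at 13.2 and 14.1 against 13.3 and 10.3. Uqcrq stood there at 133 CPM in the E17.5 control and 37.3 in QPC cKO. The level of Kat8 was also lower in the fibroblasts of MOF cKO, and the cause was not tested. Kat8 was not among the genes that passed in members at either stage, so a fall is not shown there. Exact Poisson intervals overlapped between the groups, as in E15.5 control replicate 2 (3.98 to 10.95 CPM) and MOF cKO replicate 6 (3.90 to 7.95). In members (1 to 33 UMIs) Kat8 stood at 6.837 and 11.16 against 3.916 and 5.66 CPM at E15.5. At E16.5 members had 6.968 and 9.042 against 2.493 and 6.263 CPM. Other fibroblasts had 8.996 and 9.536 against 6.902 and 6.011 CPM at E15.5, and 9.806 and 8.28 against 3.061 and 5.332 at E16.5. Reads came from the end of the transcripts, and whether the deleted part lies there is not given in the sources used here, so the RNA level is no check of the E15.5 labels.

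The genes that chose the members had levels that follow from the choice and are given as a description. Mfap5 was detected in 77.3% to 94.1% of members per library, Osr1 in 83.7% to 96.5%, Dpp4 in 34.5% to 58.5% and Pi16 in 7.42% to 55.8%. Other fibroblasts also carried them: Osr1 in 30.1% to 52.4% of cells, Dpp4 in 3.11% to 33.65%, Mfap5 in 1.85% to 13.8% and Pi16 in 0.123% to 3.63%. Dpp4 was most frequent there at E17.5 (33.65% in the control and 28.65% in QPC cKO). In keratin-high cells, which should lack the programme and were about as deep (medians of 12040 to 25520 UMIs), Mfap5 was seen in 0.111% to 13.9% of cells, Dpp4 in 6.34% to 26.7%, Pi16 in 0% to 5.56% and Osr1 in 0.217% to 3.33%. Most members had 2 of the 4 genes (1251 cells), 353 had 3 and 274 had all 4. The pair of Mfap5 and Osr1 alone accounted for 824 members (43.9%), and Pi16 was detected in 504 (26.8%). These shares differed between libraries: the pair alone made up 27.2% to 58.5% of members, and Pi16 cells were the majority in E16.5 control replicate 2 (54.5%) and E16.5 MOF cKO replicate 2 (55.8%).

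A gene that the rule did not use shows how sharp its edge was. Clec3b, the gene of the matrix protein tetranectin, had a median over libraries of 1348 CPM (321 to 3909) in the 274 cells with all 4 genes and of 540.2 CPM (103 to 952) in the 1251 cells with 2. Its median was 124 CPM (21.8 to 350) in the 4791 cells just outside with 1 gene, and 44.3 CPM (24.9 to 932) in the 1496 cells with 2 or more of the genes but 3 or more upper dermis genes. Wnt2, a Wnt ligand, had medians of 209, 21.2, 1.22 and 3.03 CPM in the same order. Wif1, a secreted Wnt inhibitor of the upper dermis, ran the other way, at 2.71, 44.8, 187 and 174 CPM. By their medians, cells with 2 of the genes lay between those with 1 and those with 4, but the ranges over libraries, which include the 3 stages, overlapped for Clec3b and Wnt2. The Wif1 ranges of cells with 2 and with 1 of the genes overlapped as well (25.6 to 170 and 40.7 to 353 CPM).

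Outside the rule, members were set apart from other fibroblasts by genes of fascia and adventitia. This is a description with no test, because the same cells were split on measured genes. Among 3204 genes that reached 50 CPM in either population, 533 were higher in members in every library (16.6%) and 632 lower (19.7%), and of these 155 and 62 differed by more than 2-fold. The largest ratio was that of Ly6a (Sca-1, a surface marker of mesenchymal progenitors). Its level in members was 114 and 59.4 CPM in the E15.5 controls, 59.3 and 121 in E15.5 MOF cKO, 658 and 588 in the E16.5 controls, 169.5 and 679 in E16.5 MOF cKO, 330.1 in the E17.5 control and 144 in QPC cKO. In other fibroblasts it lay between 0.516 and 94.4 CPM, below the members of the same library in all 10, and the median log2 ratio was 5.23. Clec3b, among the 15 largest ratios, had 152 to 1746 CPM in members against 9.44 to 369 in other fibroblasts (median log2 ratio 3.76).

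Several of the leading genes encode secreted proteins. The IGF-binding protein gene Igfbp6 had a median log2 ratio of 4.59, the Wnt ligand gene Wnt2 of 4.46 and the semaphorin gene Sema3c of 4.42. Ccn3, of the CCN matricellular family, had 3.80, and Ptgis, the prostacyclin synthase, 3.86. Tnxb, whose product tenascin-X binds collagen fibrils, had 3.67, and the collagen genes Col5a3 and Col6a6 had 3.49 and 3.16. Pamr1 (4.11), Calml4 (3.83), Fndc1 (3.62), Nrk (3.39) and Tppp3 (3.31) completed the 15 largest. In each of these genes all 10 libraries had the same sign. The 10 lowest ratios were those of the transcription factor genes Trps1 (log2 ratio -2.70), Bcl11b (-2.26), Bcl11a (-2.11) and Zfp536 (-2.09), the retinoic acid-degrading enzyme gene Cyp26b1 (-2.41), Wif1 (-2.19), Stmn2 (-2.92), Pakap (-2.61), Col7a1 (-2.06), the collagen of anchoring fibrils, and the neutrophil chemokine gene Cxcl2 (-2.15).

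**Figure D1:**
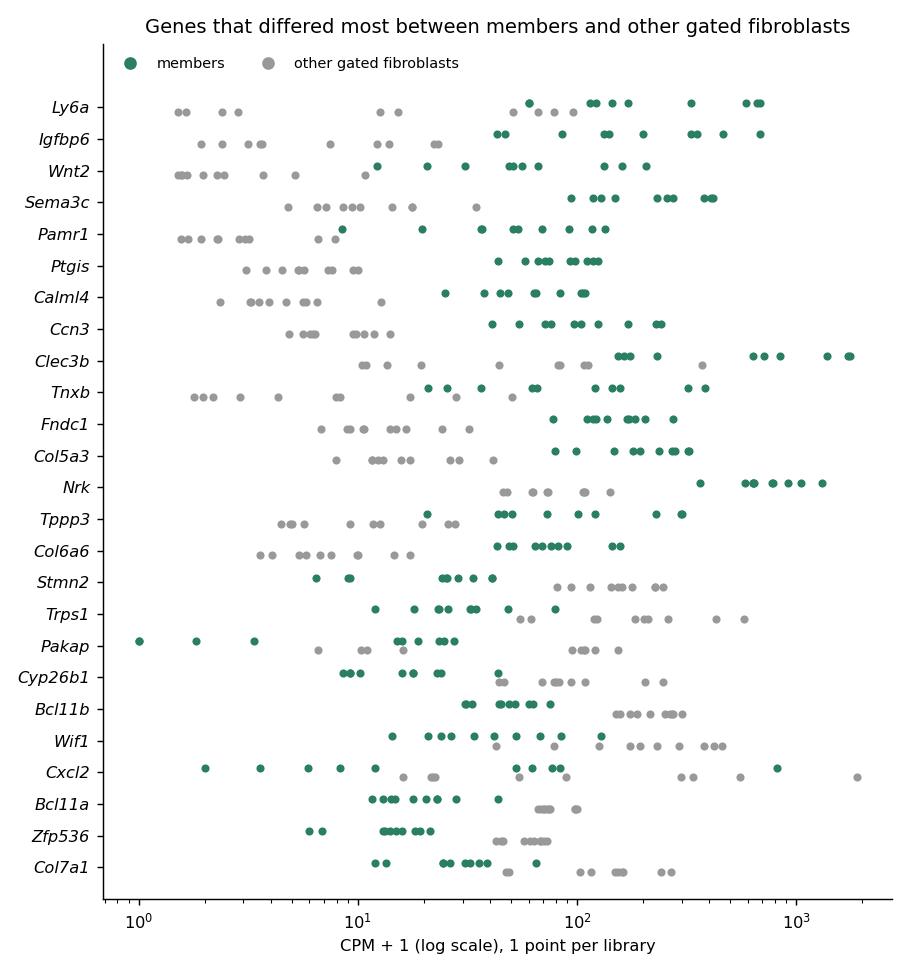
Levels of the 15 genes with the largest and the 10 with the smallest ratio between members (green) and other fibroblasts (grey), 1 point per library, in CPM plus 1 on a log axis. Ly6a lies between 59.3 and 679 CPM in members and between 0.516 and 94.4 in other fibroblasts, and the order turns round from Stmn2 downwards.

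By gene list, 18 of 25 fascia and adventitial fibroblast genes were higher in members in every library and none was lower in every library (median log2 ratio 1.78, against -0.057 over all genes that reached 50 CPM). Gpx3 (2.21), Scara5 (2.76), Cd55 (2.33), Anxa3 (3.29) and Cd34 (1.71) were among them. Of 17 elastic fibre and microfibril genes, 10 were higher in every library (median 0.89): Ltbp2 (2.58), Efemp1 (2.61), Loxl1 (1.77) and Fbn1 (1.59) among them, while Mfap2 was lower in 8 of 10 (median -0.08). Of 21 collagen and proteoglycan genes, 11 were higher in every library, among them Col14a1 (2.61), Ogn (2.09), Vcan (1.07) and Postn (1.81), and Col15a1 was lower in every library (-1.33). Of 17 upper dermis and Wnt response genes, 16 were lower in every library (median -1.68), among them Tcf7 (-2.37), Dkk1 (-2.25) and Apcdd1 (-2.00), and the exception was Ntn1 (0.20).

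Imprinted growth genes stood out as a list that the rule did not name. Of 14, 13 were higher in members in every library (median 1.32), and Nnat was lower in every library (-1.34). Among the 13 were Plagl1 (2.60), a zinc finger regulator of the network, Mest (2.27), Dlk1 (1.87), Igf2 (1.69), H19 (1.56), Cdkn1c (1.49) and Meg3 (1.04). Igf2, the fetal growth factor, lay at 1145 to 2266 CPM in members and at 322 to 1138 in other fibroblasts. Dlk1, which encodes an inhibitor of adipocyte differentiation, lay at 2659 to 11170 against 781 to 4455 CPM.

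Adipose lineage genes were mixed, with 5 of 15 higher and 4 lower in every library, against 16.6% and 19.7% of all genes that reached 50 CPM. Ebf2 (2.75), Klf4 (1.85), Dlk1 and Zfp423 (1.12), which are linked to adipocyte precursors, were among the 5 higher. Cd36 (-0.96), Cebpa (-0.58), Plin2 (-0.62) and Apoe (-0.64), of lipid handling and later differentiation, were lower. Pparg, the regulator of adipocyte differentiation, had a ratio of 0.02 with 5 libraries on each side. Growth factor ligands also differed by gene: Fgf7 (2.58), Angptl1 (2.68), Igf1 (2.19) and Gdf10 (1.65) were higher in every library, and Inhba (-2.18), Tgfb1 (-1.51), Rspo3 (-1.13) and Slit3 (-0.93) were lower. Of their receptors and inhibitors, the Wnt inhibitor genes Sfrp1 (2.28) and Dkk2 (1.92) and the binding protein gene Igfbp4 (3.005) were higher, and the hedgehog receptor gene Ptch1 (-1.61), the BMP inhibitor gene Grem1 (-2.15) and Fgfr2 (-1.68) were lower. Of 10 tendon genes, Thbs4 was higher (1.90) and Tnmd lower (-0.85) in every library, and Scx, the tendon transcription factor gene, did not exceed 1.21 CPM in members (list median -0.02).

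Markers of other cell types were also detected in members. Markers of Schwann cells summed to 0 to 7.96 CPM, of melanocytes to 0 to 19.4 and of mesothelium to 0.363 to 8.22. The 9 immune markers summed to 4.57 to 130 CPM, the 10 keratinocyte markers to 38.9 to 339, the 7 pericyte markers to 213 to 563 and the 10 skeletal muscle markers to 14.7 to 568, with the highest muscle value in E16.5 MOF cKO replicate 1. The 8 endothelial markers summed to 30.4 to 92.4 CPM and exceeded the other fibroblasts (16.7 to 43.9) in each of the 10 libraries. The part of these RNAs in the ratios above was not tested. Haemoglobin and other erythroid genes summed to 6080 to 33560 CPM at E15.5 and E16.5 and to 9.95 and 11.1 at E17.5. No doublet caller was run on these cells.

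Members with a Pi16 UMI differed from the rest of the members. Pi16 was itself part of the rule, so this too is a description. Of 3058 genes at 50 CPM, 226 were higher and 229 lower in Pi16 members in all 10 libraries. Among the 10 largest ratios were those of Wnt2 (median 174 against 23.4 CPM), the receptor tyrosine kinase gene Tek (68.5 against 7.11), Ly6a (549 against 82.8), the BMP ligand gene Bmp7 (60.1 against 11.4) and Sema3c (581 against 95.6). Among the 10 lowest were Tnc, the gene of tenascin-C (7.94 against 50.8), Sparcl1 (35.8 against 157), the natriuretic peptide gene Nppc (25.2 against 163), Ncam1 (32.0 against 106) and the neurotrophin receptor gene Ngfr (16.2 against 70.6). Wnt2, Ly6a and Sema3c, which marked members against other fibroblasts, were thus higher in the Pi16 fraction. That fraction was 20.4% and 13.8% of members in the E15.5 controls, 7.42% and 12.7% in E15.5 MOF cKO, 49.4% and 54.5% in the E16.5 controls, 20.7% and 55.8% in E16.5 MOF cKO, 33.0% in the E17.5 control and 18.0% in QPC cKO. It was higher in each E16.5 control than in either E15.5 control, but stage and chemistry changed together.

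The share of members among gated fibroblasts asks whether this population grew or shrank where MOF was to be lost from the epithelium. At E15.5 it was 4.06% (95% Wilson interval 3.5 to 4.71) and 2.55% (2.13 to 3.05) in the controls, whereas the MOF cKO libraries had 3.28% (2.88 to 3.72) and 5.26% (4.75 to 5.81). The groups overlapped, with means of 3.31% ± 1.07 (SD, n = 2) and 4.27% ± 1.40 (SD, n = 2), a difference of 0.96 points (exact two-sided permutation test, p = 0.667). The E16.5 controls had 12.8% (10.4 to 15.7) and 14.5% (12.8 to 16.46), and the MOF cKO libraries 5.97% (4.19 to 8.44) and 19.1% (16.8 to 21.6). The E16.5 MOF cKO libraries lay on opposite sides of both controls, and the means of 13.7% ± 1.20 (SD, n = 2) and 12.5% ± 9.27 (SD, n = 2) differed by -1.14 points (exact permutation p = 1.0). Without MOF cKO replicate 1 the difference was 5.41 points and without replicate 2 it was -7.70 points, so the sign depended on which library was left. With both stages in 1 test it was -0.091 points (exact permutation p = 1.0). The smallest p such a test can give is 0.0556 over both stages and 0.333 within 1 stage. A share depends on other cells too, and fewer member cells cannot be told apart from more of the others.

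At E17.5 the share was 15.9% (14.2 to 17.8) in the control and 8.36% (7.41 to 9.42) in QPC cKO, a difference of -7.54 points with 1 library per group and no test. The intervals did not overlap, but they cover counting error only. The gate took cells unequally here: 1286 of 3045 collagen-rich control cells (42.2%) were lost to the keratin limit, against 2.95% in QPC cKO. Without that limit the shares were 16.1% and 8.22%, and without the barcodes found in both libraries 15.2% and 8.34%. Cells thinned to 5000 UMIs gave 10.3% and 6.58%, and as a share of all kept cells the values were 4.82% and 3.99%.

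**Figure D2:**
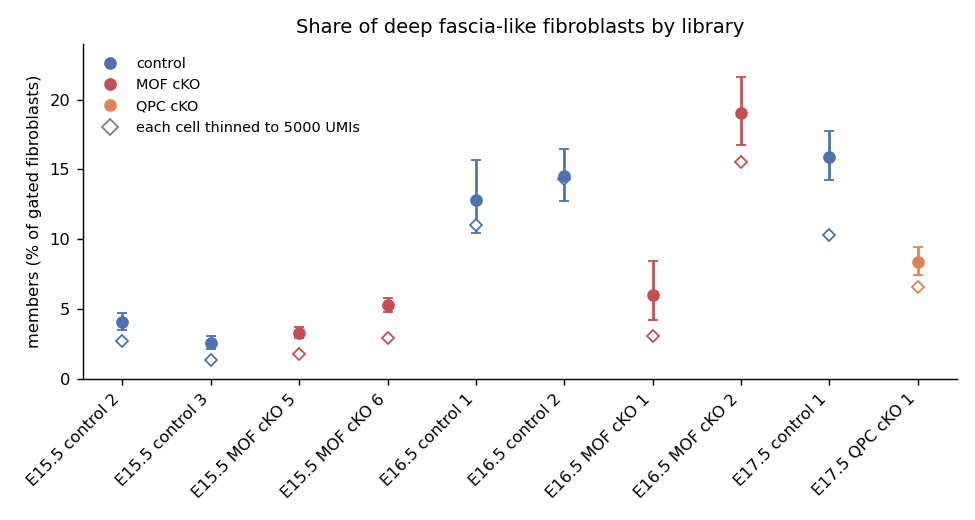
Share of deep fascia-like fibroblasts among gated fibroblasts in each of the 10 libraries, in percent, with 95% Wilson intervals as bars, and the share after thinning each cell to 5000 UMIs as diamonds. The 2 MOF cKO libraries of E16.5 lie at 5.97% and 19.1%, below and above both controls, and the E17.5 control and QPC cKO lie at 15.9% and 8.36%.

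Expression in members was then compared between MOF cKO and control at each stage, on UMIs summed per library, with the edgeR quasi-likelihood test and Benjamini-Hochberg adjustment over all genes tested. At E15.5, 1 of 10721 genes passed an adjusted p of 0.05, and it fell (0.00933% of genes lower, 0.0% higher). It was Hba-x, an embryonic haemoglobin, at 71.6 and 148 CPM in the controls against 1.12 and 2.23. Both MOF cKO levels lay below the limit of the filter on low counts. Hba-x was thus tested only because the controls were higher, and its call is not read as a result. A single cell held 96.1% and 74.3% of its UMIs in the 2 controls. No gene of the 17 lists passed, 477 genes had an unadjusted p under 0.05, and DESeq2 called 2 genes. Leaving out control replicate 2 or 3 gave 42 and 59 genes, and leaving out MOF cKO replicate 5 or 6 gave 28 and 107.

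The genes nearest to the threshold at E15.5 did not pass it and are given as values. Penk, the gene of proenkephalin, stood at 237 and 226 CPM in the controls and at 138 and 148 in MOF cKO (log2 fold change -0.74, adjusted p = 0.387). Nr2f2, a nuclear receptor gene of mesenchyme and veins, stood at 68.4 and 59.9 against 37.5 and 40.3 CPM (-0.77, adjusted p = 0.544), and Has2, a hyaluronan synthase gene, at 78.8 and 66.0 against 28.5 and 44.3 CPM (-1.02, adjusted p = 0.629). Hbb-y, an embryonic haemoglobin gene, stood at 184 and 875 against 6.71 and 7.20 CPM (-6.28, adjusted p = 0.0511). Hdac1, a histone deacetylase gene, stood at 66.0 and 57.8 against 104 and 103 CPM (0.69, adjusted p = 0.544). Ptx3, the gene of the secreted pentraxin-3 (0.92), the kinetochore gene Cenpf (0.57), Tenm3 (0.67) and the elastic fibre gene Fbln5 (0.69) were higher in MOF cKO at an adjusted p of 0.743. In each of these genes the groups did not overlap. Across lists, 21 of 22 S phase and mitosis genes had a fold change above 0 (median 0.26) and 16 of 17 AP-1 and immediate early genes one below 0 (median -0.27), against a median of -0.003 over all genes, and none was called. The fascia list had 8 genes above and 15 below 0 of 23 tested (median -0.19).

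At E16.5, 18 of 9531 genes passed in members, 14 higher in MOF cKO (0.147% of genes) and 4 lower (0.042%). In 5 of the 18, Cxcl10, Cxcl5, Ifi27l2a, Krt16 and Krt6b, both controls lay below the limit of the filter on low counts (5.82 CPM), so they were tested only because MOF cKO was higher, and their calls are not read as results. Cxcl2 and Lyz2 had 1 control below that limit, and the filter asks for 2 libraries that reach it. They too were tested only because MOF cKO was higher, and their calls are set aside as well. Krt5, another of the 18, is a gene of the gate, and nothing is read from it. Of the 24 inflammatory genes (of 30) that passed the filter, Socs3 and Irf1 rose and none fell, with Cxcl2, Cxcl10 and Cxcl5 set aside. Of 11 interferon response genes (of 16) 1 rose, Bst2. As a description, since 5 of the 24 and 2 of the 11 had both controls below the limit, the inflammatory list had a median log2 fold change of 1.22, against 0.018 over all genes, and the interferon list one of 1.39.

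The lists were higher in the other fibroblasts of MOF cKO as well. Summed over the 30 inflammatory genes, members stood at 1130 and 860 CPM in the controls and at 1802 and 2356 in MOF cKO, and other fibroblasts at 1444 and 772 against 5744 and 3600. The 16 interferon response genes summed to 871 and 873 against 1939 and 1810 CPM in members and to 563 and 551 against 3175 and 2348 in other fibroblasts. In both populations both MOF cKO libraries lay above both controls.

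The neutrophil chemokine gene Cxcl2, whose call is set aside above, stood at 11.0 and 4.93 CPM in the controls and at 82.3 and 75.9 in MOF cKO. Both MOF cKO libraries lay above both controls, although 1 cell held 69.7% of the 33 UMIs of MOF cKO replicate 1. Cxcl10, an interferon-induced chemokine gene, stood at 2.99 and 1.23 against 22.4 and 49.3 CPM. Cxcl5, also a neutrophil chemokine gene, had 0 and 1 UMI in the controls against 6 and 48, a ratio of pooled levels of 62.8 (exact interval 10.8 to 2526, counting error only). UMIs of these chemokines lay in a minority of the members: Cxcl5 was detected in 2 of 29 and 15 of 190 MOF cKO members, and Cxcl2 in 6 and 48.

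Socs3, an inhibitor of cytokine signalling induced by STAT3, was detected in most members of MOF cKO (21 of 29 and 141 of 190). It stood at 108 and 58.4 CPM in the controls and at 284 and 266 in MOF cKO (log2 fold change 1.87, SE 0.27, adjusted p = 0.0392). Irf1, a transcription factor gene of the interferon response, stood at 31.9 and 26.3 against 64.8 and 110.4 CPM (1.79, SE 0.27, adjusted p = 0.0485). Bst2, which encodes the membrane protein tetherin, stood at 36.8 and 10.3 against 142 and 145 CPM (2.90, adjusted p = 0.0392). Interferon-inducible genes outside that list, named after their values were seen, passed too: Ifitm1 at 30.9 and 42.3 against 197 and 123 (2.12, adjusted p = 0.0397) and Lgals3bp at 13.9 and 6.17 against 34.9 and 80.2 (2.94, adjusted p = 0.0392). Ifi27l2a stood at 3.98 and 5.34 against 252 and 65.8 CPM. For each of these genes both MOF cKO libraries exceeded both controls. Ly6h (2.17, adjusted p = 0.0372) and Csrnp1 (1.52, adjusted p = 0.0459) also rose.

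The upstream sequence of 4 of these genes is shown, and each of the 4 held a match to a motif named below. It was taken from RefSeq (GRCm38.p6) and holds the 250 bases before the gene's start. Capitals mark matches to motifs searched on both strands: a narrow form of the NF-kB motif (GGG, any 2 bases, TTTCC), the core of interferon-stimulated elements (GAAA, any 2 bases, GAAA), the STAT motif (TTC, any 3 bases, GAA) and the AP-1 motif (TGA, any base, TCA). Wider forms of the NF-kB motif were not searched, so lower-case letters do not show that one is absent. Cxcl2 lies on the plus strand (chr5:90903649-90903898), Cxcl10 on the minus strand (chr5:92348890-92349139), Irf1 on the plus strand (chr11:53769764-53770013) and Bst2 on the minus strand (chr8:71537473-71537722).
Cxcl2: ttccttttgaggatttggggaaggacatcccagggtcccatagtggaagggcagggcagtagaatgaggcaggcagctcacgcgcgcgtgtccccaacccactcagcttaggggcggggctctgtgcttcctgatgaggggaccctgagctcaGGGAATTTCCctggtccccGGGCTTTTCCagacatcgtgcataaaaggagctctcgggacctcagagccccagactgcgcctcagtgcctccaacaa
Cxcl10: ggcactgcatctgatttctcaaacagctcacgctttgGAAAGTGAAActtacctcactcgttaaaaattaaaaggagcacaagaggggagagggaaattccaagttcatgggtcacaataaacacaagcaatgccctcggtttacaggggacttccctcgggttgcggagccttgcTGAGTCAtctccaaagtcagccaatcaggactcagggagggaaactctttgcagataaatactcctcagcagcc
Irf1: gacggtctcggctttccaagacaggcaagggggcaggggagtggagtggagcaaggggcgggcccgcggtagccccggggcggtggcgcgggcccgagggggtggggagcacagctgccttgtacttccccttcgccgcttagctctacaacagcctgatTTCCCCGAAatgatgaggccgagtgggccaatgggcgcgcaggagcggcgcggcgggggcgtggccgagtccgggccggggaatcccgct
Bst2: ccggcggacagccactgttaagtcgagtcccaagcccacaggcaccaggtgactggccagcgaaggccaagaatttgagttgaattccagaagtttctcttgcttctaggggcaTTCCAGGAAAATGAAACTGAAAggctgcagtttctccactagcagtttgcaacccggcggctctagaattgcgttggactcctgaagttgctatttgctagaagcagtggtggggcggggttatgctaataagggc
The Cxcl2 stretch held 2 matches to the narrow NF-kB form, starting 97 and 78 bases before the gene's start. Cxcl10 held an interferon-element match at 213 bases and an AP-1 match at 74, Irf1 a STAT match at 90, and Bst2 overlapping interferon-element matches at 130 and 124 bases and a STAT match at 136 that overlaps the first of them. For 12 of the 18 genes 16 windows were found, from 250 bases before to 50 after the start. The interferon motif was in 2 of these windows, the narrow NF-kB form in 1, the STAT motif in 4 and the AP-1 motif in 2. These counts include Cxcl2 and Cxcl10, whose calls are set aside above. The windows of Ifitm1 and Lgals3bp, also interferon-inducible, held no match to any of the 4 motifs. Of all 32851 windows of that length in the table, 3.44%, 1.63%, 8.30% and 7.81% held them. A match is a description of letters and not a site.

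RNA of other cells moved with genotype at E16.5 as well. Krt16 and Krt6b, keratin genes of stressed epidermis, had 0 and 1 UMI each in control members and 33 and 60 (Krt16) or 6 and 37 UMIs (Krt6b) in MOF cKO, pooled ratios of 108 (18.9 to 4317) and 50.01 (8.51 to 2021). Both passed the filter through MOF cKO alone. In the MOF cKO libraries Krt16 stood at 77.6 and 22.0 CPM in other fibroblasts against 82.3 and 23.5 in members, and Krt6b at 30.8 and 10.3 against 14.96 and 14.5. Lyz2, a gene of macrophages and neutrophils whose call is set aside above, stood at 5.97 and 4.93 against 67.3 and 42.7 CPM in members and at 7.95 and 6.21 against 57.2 and 42.7 in other fibroblasts. The 9 immune markers summed to 22.9 and 21.0 CPM in control members and 130 and 117 in MOF cKO, with no more than 1 of the 9 at 0 in any of these libraries. The skeletal muscle markers summed to 72.7 and 58.8 CPM in control members against 568 and 134 in MOF cKO, the adipocyte markers to 12.9 and 47.7 against 135 and 128, and the endothelial markers to 82.6 and 61.2 against 92.2 and 92.4. The erythroid markers were lower, at 13190 and 24340 against 6773 and 6080 CPM. The melanocyte markers stood at 7.96 and 5.75 against 0 and 3.13, and the pericyte, Schwann, chondrocyte and mesothelial markers overlapped between the groups. The part of such RNA in the 14 rises and 4 falls was not tested. Of the 4 falls, Krt15 (89.6 and 71.9 against 2.49 and 7.44 CPM, -3.504) and Calm4 (-3.03) are epidermal genes, and another was that of the gate gene Krt5. Krt15 had 1 MOF cKO library below the limit of the filter on low counts (5.82 CPM). It was thus tested only because the controls were higher, and its call is set aside as well. The keratinocyte markers summed to 339 and 282 CPM in control members and to 157 and 92.4 in MOF cKO.

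The fourth fall was of Wif1, which stood at 83.6 and 66.6 CPM in control members and at 19.9 and 13.3 in MOF cKO (log2 fold change -2.24, SE 0.28, adjusted p = 0.0273). It was the 1 call among 11 upper dermis and Wnt response genes tested (median -0.39). Thy1, a surface marker of fibroblasts (231 and 218 against 87.2 and 74.0 CPM, -1.41, adjusted p = 0.0535), and Phgdh, of serine synthesis (97.6 and 95.4 against 32.4 and 35.2 CPM, -1.40, adjusted p = 0.0615), did not pass, nor did the haemoglobin gene Hbb-bt (2333 and 3678 against 865 and 957 CPM, -1.64, adjusted p = 0.072). None of the 23 fascia genes tested, the 17 elastic fibre genes or the 21 collagen genes passed. Of the fascia genes, 18 lay below 0 (median -0.26), with Ly6a at 658 and 588 CPM in the controls against 169.5 and 679, where the groups overlapped. Of 22 S phase and mitosis genes 20 lay below 0 (median -0.65), with 10 at an unadjusted p under 0.05 and none called, and all 16 AP-1 genes lay above 0 (median 0.46).

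The E16.5 calls rested on few cells and few libraries, and each of the 18 genes missed the threshold when at least 1 of the 4 libraries was left out. Without control replicate 2 there were 179, all 18 among them, and without MOF cKO replicate 2 there were 7, with 2 of the 18. Leaving out control replicate 1 or MOF cKO replicate 1 gave 19 and 13 calls, with 7 and 10 of the 18. In members with at least 3 of the 4 rule genes, 5 genes passed, and the Cxcl2 change was 1.09 (adjusted p = 1.0). Unadjusted, 735 genes had p under 0.05, and DESeq2 called 32 genes, 15 of the 18 among them.

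**Figure D3:**
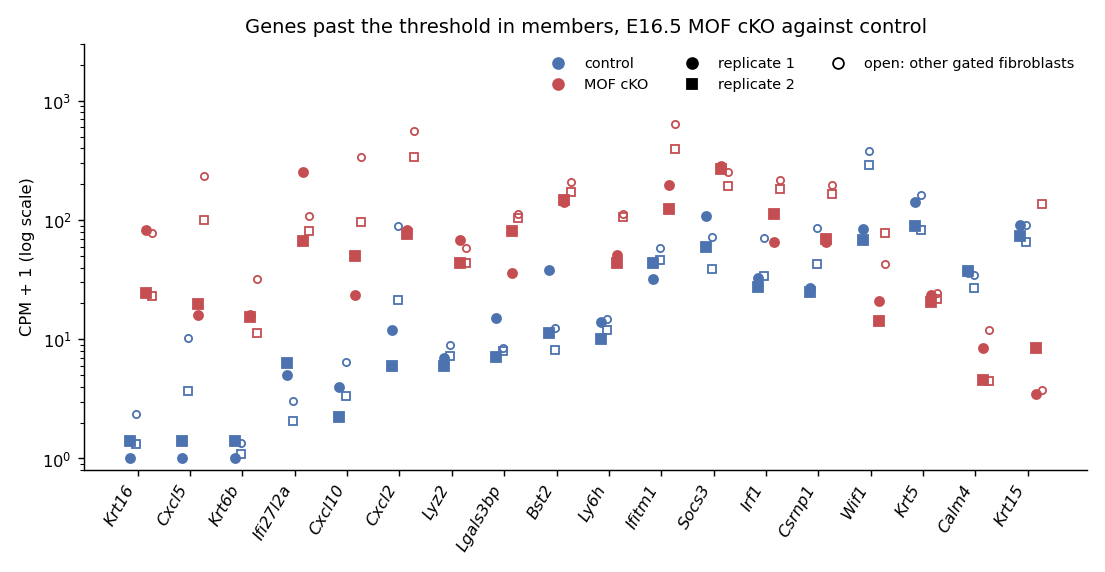
The 18 genes past the threshold in members at E16.5, in CPM plus 1 on a log axis: filled symbols are members and open symbols other fibroblasts, blue is control and red MOF cKO, circles are replicate 1 and squares replicate 2. In each of the 18 genes the filled red symbols lie on 1 side of the filled blue ones, with Cxcl2 at 82.3 and 75.9 against 11.0 and 4.93 CPM.

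Whether the change with genotype differed between the stages was tested as an interaction over the 8 libraries, and 0 of 10903 genes passed in edgeR (0.0% called). At an unadjusted p under 0.05 there were 752 genes, and DESeq2 called 9. Without E16.5 control replicate 1 edgeR called 4 genes, and without E16.5 MOF cKO replicate 2 it called 1. The 25 inflammatory genes tested all had an interaction above 0 (median 1.09) and the 22 S phase and mitosis genes all one below 0 (median -0.77), but no gene of either list passed. The change of the inflammatory genes with genotype at E16.5 is therefore not shown to differ from that at E15.5.

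Members were next set against the other fibroblasts of the same libraries, testing the difference between the 2 genotype effects. At E15.5, 5 of 15105 genes passed, 1 more positive in members (0.00662%) and 4 more negative (0.0265%). The change of Nr2f2 was more negative in members than in the others, where it stood at 22.3 and 24.3 against 26.9 and 29.7 CPM (difference of log2 fold changes -1.004, adjusted p = 0.0366). S100a6, a calcium-binding protein gene, had a difference of -0.61 (adjusted p = 0.0488). The serine protease gene Prss23 had a difference of 2.04 (adjusted p = 0.000122): it stood at 32.6 and 20.3 against 28.8 and 58.7 CPM in members and at 35.5 and 21.0 against 9.08 and 13.6 in others. The other two were Hba-x and Hbb-y, of which a single cell held 53.5% to 97.2% of the UMIs in each control. Rgcc (0.85, adjusted p = 0.11), Pbk (0.78), Mgst3 (0.80) and Shcbp1 (0.75, adjusted p = 0.261 for these 3) had the next positive differences and did not pass. Nr2f2 and S100a6 did not pass without control replicate 2 (-0.88 and -0.51), with at least 3 of the 4 rule genes (-0.69 and -0.34) or under 5% mitochondrial UMIs (-0.92 and -0.56). Leaving out control replicate 2 or 3 gave 9 and 75 calls, and leaving out MOF cKO replicate 5 or 6 gave 46 and 147.

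At E16.5, 136 of 11937 genes passed, 16 more positive (0.134%) and 120 more negative (1.01%) in members than in other fibroblasts. Of the 136, 4 were genes of the gate or the rule itself (Col1a1, Col3a1, Mfap5 and Pi16), and nothing is read from them. Both populations were split on measured genes, and Ly6a and Sema3c were higher in members with a Pi16 UMI. The calls of fascia genes are therefore given as a description. The lists with the most negative calls were the fascia list and the collagen and proteoglycan list. Of the 25 fascia genes 12 passed, all negative, with Ly6a at 11.7 and 14.2 CPM in other fibroblasts of the controls and 77.7 and 94.4 in those of MOF cKO (difference -3.34, SE 0.36, adjusted p = 0.000198). In members, as given above, Ly6a lay a little above both controls in MOF cKO replicate 2 and below both in replicate 1. Ly6c1 (-3.16), Plac8 (-2.38) and Anxa3 (-2.29) were among them. Of 17 elastic fibre genes 5 passed, all negative, including Efemp1 (-1.74), Fbln2 (-1.25), Lox (-0.97) and Fbn1 (-0.73). Of 21 collagen and proteoglycan genes 7 passed, all negative, with Clec3b at 111 and 80.4 against 107 and 369 CPM in others and 1711 and 1380 against 713 and 1746 in members (-1.63, adjusted p = 1.45e-05). Postn (-0.96), Fn1 (-0.91) and Tnc (-1.40) also passed. Some of these rested on 1 library. Without MOF cKO replicate 2 the difference of Anxa3 was -1.39 and did not pass, while those of Ly6c1, Efemp1 and Fbn1 were -5.45, -3.27 and -1.15. Without control replicate 2, Fbln2 (-0.81), Fbn1 (-0.76) and Anxa3 (-2.08) did not pass, and without control replicate 1 neither did Fbn1 (-0.73) and Tnc (-1.17).

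Of 14 imprinted genes 6 passed, all negative. H19, the imprinted RNA next to Igf2, stood at 4749 and 3499 CPM in control members and 5160 and 4767 in MOF cKO members, while in other fibroblasts it stood at 1485 and 1059 against 3333 and 3510 (difference -1.23, SE 0.076, adjusted p = 1.07e-06). Igf2 (-0.85), Meg3 (-0.77) and Plagl1 (-0.80) passed as well, Plagl1 not without control replicate 2 (-0.68). Of 6 complement genes 4 passed, all negative, among them C2 (-4.03), Serping1 (-1.79) and Cd55 (-1.91), and of 16 interferon response genes 5, Isg15 and Gbp2 among them. Isg15 stood at 1.86 and 1.49 against 182.5 and 112 CPM in others and at 20.9 and 0.822 against 39.9 and 27.4 in members (-4.21). For Isg15 and Gbp2 only 1 of the 4 control sums reached the limit of the filter on low counts, which asks for 2. They were thus tested only because MOF cKO was higher, and their calls are not read as results. Bst2 (-1.51), Ifitm3 (-1.09) and the monocyte chemokine gene Ccl7 (-4.19) also passed. Of 22 S phase and mitosis genes 3 passed, all positive: Cdk1, the mitotic kinase, stood at 109 and 125 against 67.3 and 103 CPM in members and at 149 and 191 against 50.7 and 58.7 in others (1.21, adjusted p = 0.00492), and Aurkb (1.78) and Tpx2 (1.29) also passed. Without MOF cKO replicate 2 none of these 3 mitotic genes passed, with Cdk1 at 0.79, Aurkb at 0.86 and Tpx2 at 0.29, and without control replicate 2 Cdk1 (1.06) and Tpx2 (1.14) did not. Tpx2 also missed the threshold without control replicate 1 (1.31). Without that library the differences of Isg15 and Bst2 were -1.25 and -0.89 and did not pass. The difference of Ccl7 was -7.50 without MOF cKO replicate 2.

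The other positive differences among the largest were those of Pimreg, a mitotic regulator gene (1.45), Mpp6 (1.44) and Sox11, a transcription factor gene of embryonic cells (1.36, adjusted p = 0.0119). Sox11 stood at 34.8 and 34.9 against 62.3 and 40.3 CPM in members and at 70.8 and 50.3 against 32.2 and 27.1 in others. Of 16 AP-1 and immediate early genes Jun (-0.78) and Zfp36 (-0.73) passed, and of 10 myofibroblast and cytoskeleton genes Ccn1 (-0.97, adjusted p = 0.00111). Of 26 inflammatory genes 2 passed, Ccl7 and Timp1 (-1.52), an inhibitor of metalloproteinases. The complement gene C1ra (-3.44) and the interferon-induced GTPase gene Gbp2 (-4.53, a call set aside above) stood at no more than 1.18 CPM in other fibroblasts of the controls. Pimreg and Mpp6 did not pass without control replicate 2 (1.38 and 1.29) or MOF cKO replicate 2 (1.07 and 1.20), and Zfp36 not without either control (-0.79 and -0.66). Without control replicate 1, Sox11 (1.23), C1ra (-3.57) and Gbp2 (-2.98) did not pass. Gbp2 was at -8.52 without control replicate 2 and Timp1 at -2.55 without MOF cKO replicate 2.

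Other fibroblasts are a mixture, and their make-up varied between the libraries: cells with 3 or more upper dermis genes and under 2 of the 4 rule genes were 45.7% and 38.1% of them in the E16.5 controls and 52.5% and 46.8% in MOF cKO. Among the 120 negative differences, the epidermal genes Krt15 (-4.22), Asprv1 (-4.33) and Cnfn (-6.20) rested on MOF cKO replicate 2, whose other fibroblasts held Krt15 at 136 CPM against 2.72 in replicate 1, and without it the differences were -0.39, -2.47 and -1.86 and did not pass. Members varied in make-up too: a Pi16 UMI was seen in 49.4% and 54.5% of them in the E16.5 controls and in 20.7% and 55.8% in MOF cKO. The part of the make-up of either population, or of epidermal RNA, in the remaining calls was not tested. Without MOF cKO replicate 1 there were 458 calls, all 136 among them, and without MOF cKO replicate 2 there were 388, with 96 of the 136. DESeq2 called 53 genes, 52 of the 136, and none of the positive differences. Of the negative ones named above it did not call Ly6c1, Anxa3, Efemp1, Fbln2, Fbn1, Tnc, Isg15, Ccl7, Gbp2, Jun, Zfp36, Krt15 and Cnfn.

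**Figure D4:**
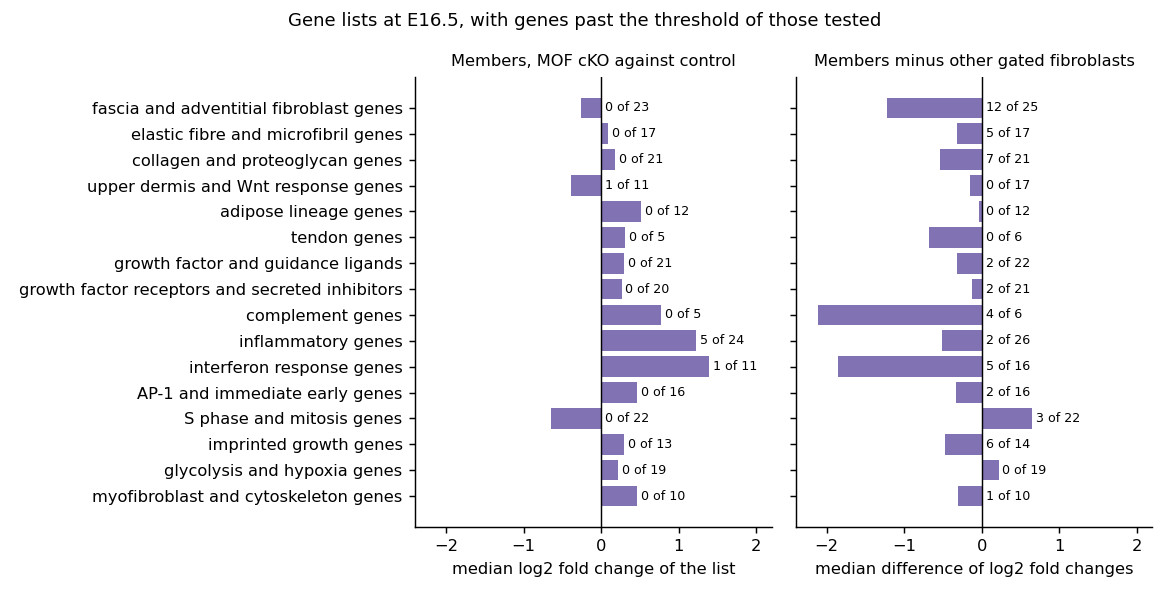
Median log2 fold change of each gene list at E16.5 in members (left) and median difference of the log2 fold changes between members and other fibroblasts (right), with the number of genes past the threshold of those tested beside each bar. The inflammatory list has 5 of 24 past the threshold and a median of 1.22 on the left, and the fascia list 12 of 25 on the right. Of those 5, Cxcl2, Cxcl5 and Cxcl10 were tested only because MOF cKO was higher.

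At E17.5, 14 of 23 inflammatory genes were lower in QPC cKO members than in control members. With 1 library per group there is no test, and a gene is counted when its CPM ratio (pseudocount 1) reached 2-fold and the exact Poisson intervals lay apart. This held for 53 of 6805 genes higher (0.779%) and 138 lower (2.03%). A gene had to reach 100 UMIs in either library, so some entered only through the library where they were higher. Gm12840, Cpa3, Wnt2 and Anxa3 reached 100 UMIs in the control alone, and Hoxc10, Gm26802, Sox18 and Cox4i2 in QPC cKO alone. Their values are a description and are not read as results. The 23 inflammatory genes are those that reached 100 UMIs in 1 of the libraries, and none was higher (median log2 ratio -1.21, against 0.031 over all genes). The largest fall of all was of Gm12840, a predicted gene, at 209 CPM (198 to 221) in the control and 9.06 (6.73 to 11.95) in QPC cKO, with 26.3 against 4.14 in other fibroblasts. The monocyte chemokine gene Ccl7 stood at 486 CPM (469 to 504) in the control and at 31.7 (27.2 to 36.8) in QPC cKO, Cxcl2 at 816 (794 to 839) and 61.1 (54.7 to 68.0), and Ccl2 at 1161 (1134 to 1188) and 145 (135 to 155). Cxcl1, Il6, Ptgs2 (cyclooxygenase-2) and Tnfaip6 had 2098, 268, 180 and 1765 CPM in the control against 392, 62.4, 43.0 and 674. Other fibroblasts of the same libraries had the same order, with Cxcl2 at 1879 against 295.5 CPM and Ccl2 at 1971 against 334. Cpa3, a protease gene of mast cells and the last of the 5 largest falls, stood at 37.1 CPM (32.5 to 42.2) and 3.81 (2.36 to 5.82), and at 11.7 against 6.39 in other fibroblasts. Markers of other cells went both ways between the control and QPC cKO members. The keratinocyte markers summed to 319 and 165 CPM, the immune markers to 18.1 and 6.89, the endothelial markers to 42.1 and 31.7 and the mesothelial markers to 0.642 and 0.363, while the pericyte (283 and 348), skeletal muscle (133 and 240), adipocyte (118 and 163), chondrocyte and bone (22.2 and 29.2), melanocyte (5.78 and 19.4), Schwann (1.77 and 5.80) and erythroid (9.95 and 11.1) markers were higher in QPC cKO. Their part in the inflammatory values was not tested.

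Of 21 fascia genes, 7 were lower in QPC cKO by 2-fold or more and none higher (median -0.76), and the other 14 did not reach 2-fold, among them Cd34 (498 and 368 CPM). Wnt2 stood at 47.7 CPM (42.4 to 53.4) in the control and 11.2 (8.62 to 14.4) in QPC cKO, Sema3c at 274 and 118, Ly6a at 330.1 and 144, and Anxa3 at 53.1 and 7.43. Gfpt2, Sfrp4 and Ly6c1 were the others. Wnt2 and Anxa3 had 62 and 41 UMIs in QPC cKO and entered the count only because the control was higher. Pi16, a rule gene, stood at 178 and 44.4 CPM, and the Pi16 fraction of members was 33.0% and 18.0%. Of 17 elastic fibre genes Efemp1 (241 and 107 CPM) and Eln, the gene of elastin (1006 and 482), were lower, while none of 20 collagen genes reached 2-fold, with Col1a2 at 17390 and 14980 CPM. Higher in QPC cKO were the posterior Hox gene Hoxc10 (4.01 against 28.6 CPM), the non-coding Gm26802, the endothelial transcription factor gene Sox18 (5.14 against 34.1), Cox4i2, a subunit of respiratory complex IV (3.05 against 21.8), and the histone gene Hist1h2ap (17.02 against 87.4). In other fibroblasts Hoxc10 stood at 12.8 against 74.1 CPM, Gm26802 at 3.17 against 22.3 and Hist1h2ap at 61.6 against 221. Sox18 stood there at 51.9 against 93.4 and Cox4i2 at 98.5 against 102.5. Wif1 (51.5 and 128) and Ptch1 (40.3 and 96.1) were higher too. Uqcrq itself stood at 67.9 (61.6 to 74.7) and 104 CPM (95.9 to 113) in members.

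**Figure D5:**
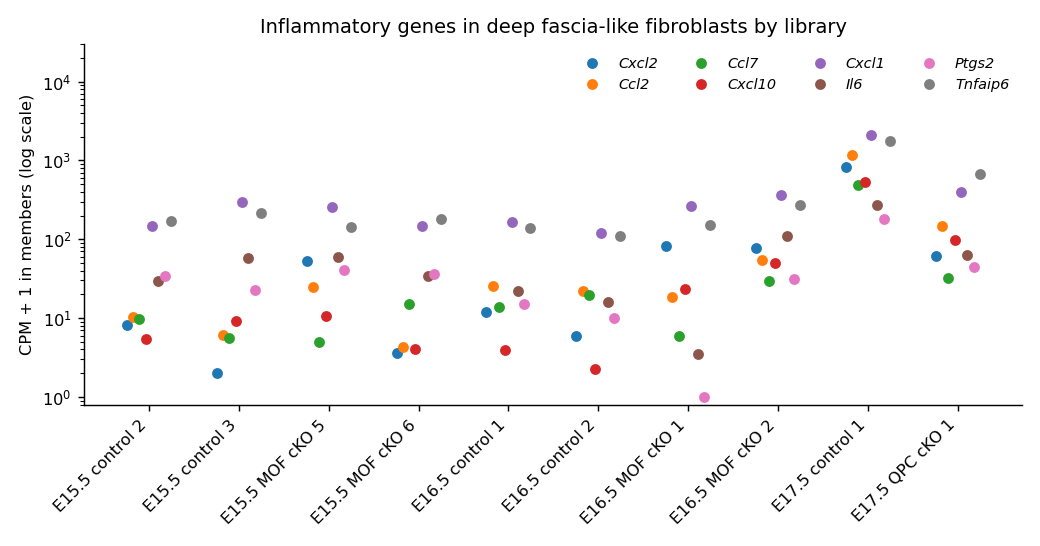
Levels of 8 inflammatory genes in members in each of the 10 libraries, in CPM plus 1 on a log axis. Every one of the 8 genes is highest in the E17.5 control, where Cxcl1 reaches 2098 CPM and Ccl2 1161, and Cxcl2 lies at 82.3 and 75.9 CPM in E16.5 MOF cKO against 11.0 and 4.93 in its controls.

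Across stages, control members are described without a test, because the labels give each stage its own version of the chemistry and only 1 control was taken at E17.5. Sex-linked RNA also changed with stage: the E15.5 controls held Xist and no Ddx3y RNA, and the E17.5 control the reverse. Sex and stage cannot be told apart between them. The gene annotation was the same at E15.5 and E17.5 and differed at E16.5. Of 3430 genes at 50 CPM, 246 were 2-fold or more higher in the E17.5 control than the mean of the E15.5 controls and 134 lower, with groups apart. Of 19 inflammatory genes 15 were higher and none lower: Cxcl2 stood at 7.24 and 1.02 CPM at E15.5, 11.0 and 4.93 at E16.5 and 816 at E17.5. Ccl2 stood at 9.25 and 5.07, 24.9 and 21.0, and 1161 CPM. Other fibroblasts had log2 ratios of 6.40 and 6.35 for these 2 genes, against 7.32 and 7.15 in members. The QPC cKO library, with Cxcl2 at 61.1 CPM, thus lay between the earlier controls and its own control. Of 16 elastic fibre genes 7 were higher, Eln with 333 and 184 CPM at E15.5, 509 and 379 at E16.5 and 1006 at E17.5. Of 17 S phase and mitosis genes 13 were lower, Top2a with 290 and 329, 154 and 203, and 58.9 CPM. The fascia list had 6 of 17 higher, Tnxb at 61.1 and 24.4, 156 and 120, and 383 CPM. The largest rises were those of Cxcl2, Ccl2, Gm12840 (0.402 and 1.02 CPM at E15.5 and 209 at E17.5), Ddx3y, a gene of the Y chromosome, and Cxcl10 (4.42 and 8.12 at E15.5, 527 at E17.5), and the lowest ratios those of the haemoglobin genes Hbb-bs, Hbb-bt, Hba-a1 and Hba-a2 and of Xist.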

How the data were processed

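The 10 libraries of dissociated embryonic back skin were made by the authors with droplet chemistries that differed by stage, and reads were aligned to mm10 and counted per gene and barcode with Cell Ranger (versions 6.1.2 and 1.3.1 in the submitters' processing notes, with Seurat). The deposited files hold UMI counts per gene and cell, not normalized. The gene list of E16.5 (27998 identifiers) differed from that of the other stages (32285). Comparisons within a stage used the stage's own list, and the stage by genotype comparison used the 27040 identifiers present in both. No doublet caller was run and none of the samples was left out.

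Cells were filtered and gated as described, and UMIs of members and of other fibroblasts were summed per library. The sums went into edgeR's quasi-likelihood test (edgeR 4.0.16, R 4.3.3; TMM scaling, edgeR's filter on low counts, each stage on its own) with Benjamini-Hochberg adjustment over all genes tested and a threshold of 0.05. The same test with a term for population by genotype compared members with other fibroblasts, keeping the library as a block, and a term for stage by genotype compared stages. DESeq2 1.42.0 was an alternative. Shares were compared by two-sided exact permutation over libraries (scipy 1.17.1). At E17.5, with 1 library per group, ratios of CPM plus 1 stand beside the exact Poisson interval of each level. Intervals cover counting error only. Scripts were tested on simulated data.

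The rule for named genes took the rule genes, up to 4 called and 3 abundant genes of each of 17 gene lists (of the abundant ones that were not called only some are printed), the 5 largest rises and falls of a comparison at 50 CPM with groups apart (filled up by the lowest unadjusted p; at 100 UMIs at E17.5), and the 15 highest and 10 lowest ratios between members and other fibroblasts. Further genes past the threshold, and further genes of the lists in the untested descriptions, were named after their values were seen. The members and the lists were chosen with earlier results of these data known. The labels name no sequencing batch. The labels give a different version of the chemistry at each stage, so version and stage cannot be told apart.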

Additional observations from a re-analysis of the deposited data

Results flagged for a closer look

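The following results are listed because the effect of genotype differed between deep fascia-like and other fibroblasts of the same libraries by the edgeR quasi-likelihood test with Benjamini-Hochberg adjustment. Each value is the log2 fold change of MOF cKO against control in members minus that in other fibroblasts.

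At E15.5 there were 5 such genes. Prss23 was at 2.04, S100a6 at -0.61 and Nr2f2 at -1.004, and the embryonic haemoglobin genes Hba-x and Hbb-y were at -6.43 and -6.93, with 53.5% to 97.2% of their UMIs in each control in a single cell. S100a6 and Nr2f2 did not pass without control replicate 2 (-0.51 and -0.88).

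At E16.5 there were 136. The fascia genes Ly6a, Ly6c1, Plac8 and Anxa3 were at -3.34, -3.16, -2.38 and -2.29, given as a description since the cells were split on measured genes. The matrix genes Efemp1, Fbln2, Lox and Fbn1 were at -1.74, -1.25, -0.97 and -0.73, and Clec3b, Postn, Fn1 and Tnc at -1.63, -0.96, -0.91 and -1.40. Growth factor genes and their binding proteins were negative as well, with Igf2 at -0.85, Igfbp6 at -1.16 and Sfrp2 at -0.92, as were the imprinted genes H19 at -1.23, Meg3 at -0.77 and Plagl1 at -0.80. The complement and complement control genes C2, Serping1 and Cd55 were at -4.03, -1.79 and -1.91, the interferon response genes Isg15, Bst2 and Ifitm3 at -4.21, -1.51 and -1.09, and the chemokine gene Ccl7 at -4.19. The inflammatory gene Timp1 was at -1.52, C1ra at -3.44, Gbp2 at -4.53, Jun at -0.78, Zfp36 at -0.73 and Ccn1 at -0.97. Isg15 and Gbp2 passed the filter on low counts only because MOF cKO was higher, and nothing is read from their values. The mitotic genes Aurkb, Cdk1 and Tpx2 were positive, at 1.78, 1.21 and 1.29, as were Pimreg, Mpp6 and Sox11, at 1.45, 1.44 and 1.36. Of these, Aurkb, Cdk1, Tpx2, Anxa3, Pimreg and Mpp6 did not pass without MOF cKO replicate 2 (0.86, 0.79, 0.29, -1.39, 1.07 and 1.20). Without control replicate 1, Isg15, Bst2, Gbp2, C1ra, Sox11, Zfp36, Fbn1, Tnc and Tpx2 did not pass (-1.25, -0.89, -2.98, -3.57, 1.23, -0.79, -0.73, -1.17 and 1.31). Without control replicate 2, Fbln2, Fbn1, Anxa3, Plagl1, Cdk1, Tpx2, Pimreg, Mpp6 and Zfp36 did not (-0.81, -0.76, -2.08, -0.68, 1.06, 1.14, 1.38, 1.29 and -0.66). Igfbp6 did not pass without control replicate 2 (-0.996) or MOF cKO replicate 2 (-1.01), nor Sfrp2 without control replicate 2 (-0.81), and leaving out 1 library gave Sfrp2 a range of -1.50 to -0.63, with -1.50 without MOF cKO replicate 2. The epidermal genes Krt15, Asprv1 and Cnfn were at -4.22, -4.33 and -6.20, and without MOF cKO replicate 2 at -0.39, -2.47 and -1.86.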

How the results depend on the processing

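Counts of genes past the threshold changed with the setting in each MOF cKO comparison, and the cause was not tested. In members at E15.5 (1 gene), DESeq2 gave 2, scaling by library size 2, no filter on low counts 92, members with at least 3 of the 4 genes 0 (edgeR, 336 at an unadjusted p under 0.05), a limit of 5% mitochondrial UMIs 2, a limit of 5000 genes per cell 3, and leaving out 1 library 28 to 107. In members at E16.5 (18 genes), the same settings gave 32 for DESeq2, 202 with no filter, 5 with at least 3 of the 4 genes, 8 at 5% mitochondrial UMIs, 29 at 5000 genes and 7 to 179 when 1 library was left out. Members without any Krt5 or Krt14 UMI gave 3 genes, none of the 18, from 1111 genes tested in 1 and 14 control and 5 and 73 MOF cKO cells. With a replicate block at E16.5, 35 genes passed, all 18 among them. The deviations of same-numbered libraries had a correlation of -0.017 over 2 pairs, so the numbers were not taken as pairs. For the interaction with stage (0 genes), DESeq2 gave 9, no filter 129, and leaving out 1 library 0 to 4. For members against other fibroblasts at E15.5 (5 genes), no filter gave 97, at least 3 of the 4 genes 56, 5000 genes per cell 14, and leaving out 1 library 9 to 147, and 3 of the 5 were among the calls with at least 3 of the 4 genes, at 5% mitochondrial UMIs and without control replicate 2. At E16.5 (136 genes), DESeq2 gave 53, no filter 326, and leaving out 1 library 104 to 458. Of those 136, 97 were called with at least 3 of the 4 genes, 120 at 5% mitochondrial UMIs and 126 at 5000 genes per cell. Of the 40 genes named from that comparison, 10, 4 and 2 lost their call in these settings. At E17.5, a pseudocount of 10 gave 94 genes in place of 191.

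The difference in share at E15.5 ranged from -0.030 to 1.95 points when 1 library was left out, and at E16.5 from -7.70 to 5.41 (1.32 among all kept cells). Over both stages it ranged from -3.37 to 3.19, with 1.25 among all kept cells and 0.70 without the limit on upper dermis genes. At E17.5 it was -4.49 with at least 3 of the 4 genes, -4.37 at 5000 genes per cell, -3.69 in thinned cells, -0.83 among all kept cells and -4.69 without the limit on upper dermis genes. No gene named with a test reversed its direction where it was tested, but some were left untested by fewer cells: 5 of 23 genes at E16.5 could be tested without keratin UMIs and 21 of 23 with at least 3 of the 4 genes or without MOF cKO replicate 2, and 9 of 12 at E15.5 with at least 3 of the 4 genes. The fits without keratin UMIs, keratin limit, upper dermis limit or shared barcodes were chosen after seeing the data. E16.5 MOF cKO replicate 1 had the fewest members (29, with 401180 UMIs).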

Other observations

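Single genes of the lists not described above are given here without a test, because the cells were split on measured genes. Of all genes at 50 CPM, 16.6% were higher and 19.7% lower in members in every library, and the counts of these lists are not read as setting members apart. Among myofibroblast and cytoskeleton genes, Thbs1 (thrombospondin-1, median log2 ratio 1.11) and Itga5 (0.33) were higher in members in every library, while Acta2, the smooth muscle actin gene, was higher in 7 of 10. Of 11 complement genes, Serping1 (1.33) and Cd55 (2.33), which encode inhibitors of complement, were higher in every library and Cd59a was lower (-0.53). Of 20 glycolysis and hypoxia genes, Vegfa (0.43) and Hk2 (0.98) were among the 3 higher in every library, and Ldha was lower in 9 of 10. No glycolysis gene passed the edgeR quasi-likelihood test in members or against other fibroblasts, and the list had medians in members of 0.06 (E15.5) and 0.21 (E16.5). In the AP-1 list, Klf2, a transcription factor gene, stood at a median of 586 CPM in members against 191 in other fibroblasts (log2 ratio 2.11), and Junb was lower in every library (-0.38). Of 30 inflammatory genes 4 were higher in every library, including the alarmin gene Il33 (1.45), the hyaluronan synthase gene Has1 (1.78) and Csf1 (0.59), and 6 were lower, including the adhesion molecule gene Icam1 (-0.86).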
